A study of Homo sapiens with 33 samples.

Results

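The BTB and SCAN zinc finger genes are described here as 54 genes of 2 human breast cancer cell lines, MDA-MD-231 and MDA-MD-468 as the labels spell them. They were chosen by name and level. Of 62 entries whose symbol is ZBTB or ZSCAN followed by a number, 54 had at least 10 counts in at least 11 of the 22 inhibitor libraries. The 54 members, 37 ZBTB and 17 ZSCAN genes, stand among 59428 entries of the count table. Just inside the rule were ZSCAN4 and ZSCAN1, each with at least 10 counts in 11 libraries, all of them MDA-MD-468. ZBTB7C reached 10 counts in 12 libraries, among them all of MDA-MD-468. Just outside the rule were ZSCAN23 with 10 libraries and ZBTB20 with 9. The other 6 entries, ZBTB16, ZBTB32, ZBTB8B, ZSCAN10, ZSCAN5B and ZSCAN5C, reached 10 counts in 0 libraries.

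Both families are transcription factors that bind DNA through C2H2 zinc fingers. ZBTB proteins carry an amino-terminal BTB domain, which forms dimers and recruits co-repressors such as NCOR, BCOR and histone deacetylases. ZSCAN proteins carry a SCAN domain, which forms dimers with other SCAN proteins and does not itself repress or activate transcription. In breast tissue and elsewhere, ZBTB proteins are known as regulators of the cell cycle, of methylated DNA and of lineage choice, and most ZSCAN proteins are little studied.

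The inhibitor part has 22 libraries. In each line, SY200, V50 and the combination SY200/V50 were given for 3, 6 and 12 h, and each line has 2 control libraries at 0 h, called DMSO and Parental. All of these cells have the wild-type genotype per the labels. The knockout part has 11 MDA-MD-231 libraries, with knockouts (KO) of CDK1, of CDK7, of CDK9 and of both CDK7 and CDK9 at 72 and 96 h, empty vector cells at the same times, and 1 Parental library. The series' design text names the treatments as inhibitors of CDK7 and of CDK9, the kinases that phosphorylate RNA polymerase II during initiation and pause release, and their combination. The labels do not say which compound acts on which kinase, what the numbers in the compound names mean, or whether a knockout is 1 clone or a pool. Each line, treatment and time has 1 library, and nothing in the labels says that libraries came from separate cultures. The p-values of the treatments thus measure how much effects differ between the lines and how DMSO and Parental cells differ. Those of the knockouts measure how much effects differ between the times. Either spread may be technical. Comparisons of the lines, or of effects between them, have 1 line on each side. Their p-values rest on the spread left among libraries of these lines and do not measure how much cell lines vary. Comparisons with control share the same 4 control libraries, and the knockout comparisons share the same empty vector libraries.

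Messenger RNA was read as tags next to the 3' end, so a tag count does not scale with transcript length, and levels are given as CPM, counts relative to the TMM-scaled library total. Libraries held 16985219 to 22859779 counts. As CPM of the raw total of a library, the 11 markers of the mesenchymal line MDA-MB-231 summed to 8560 to 14900 in the inhibitor libraries labelled MDA-MD-231 and to 1270 to 3110 in those labelled MDA-MD-468. The 11 markers of the epithelial line MDA-MB-468 summed to 6890 to 15000 in the libraries labelled MDA-MD-468 and to 944 to 1900 in those labelled MDA-MD-231. On the same scale the 8 immune markers summed to at most 23.1 and the 7 fibroblast and endothelial markers to at most 27.1 in any library. In bulk samples, fewer cells of a type and less RNA per cell cannot be told apart. The DMSO and Parental libraries of a line differed beyond counting noise, with a chi-square per degree of freedom of 44.5 for MDA-MD-231 and 27.5 for the other line, and were kept as separate samples. Mitochondrially encoded mRNAs took 5.05% of counts after 12 h of SY200/V50 in MDA-MD-231, against 2.51% and 2.17% in its controls, and 13.5% in MDA-MD-468, against 3.93% and 3.88%. Their part in the results below was not tested beyond scaling to these mRNAs. Under that scaling, the median gene of all 18911 tested moved to a log2 fold change of -0.44 with SY200, -0.92 with V50 and -1.33 with SY200/V50.

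Before treatment, the members were expressed at low to middle levels that differed between the lines. The median member had 18 CPM in the MDA-MD-468 controls and 15.8 CPM in the MDA-MD-231 controls, and 20 CPM was reached by 24 of 54 members in MDA-MD-468 and by 21 in MDA-MD-231. ZBTB4, a protein that binds methylated CpG, stood highest in MDA-MD-231 with 96.8 ± 10.2 CPM, followed by ZBTB44 with 80.8 ± 25.8 CPM (SD, n = 2), which do not differ beyond their spread. In MDA-MD-468 the highest was ZBTB7B, known as ThPOK for its role in CD4 T cell commitment, with 103 ± 8.27 CPM, followed by ZBTB5, a repressor of CDKN1A, with 91.9 ± 11.5 CPM (SD, n = 2), again within their spread. In the line comparison, 17 members were higher and 4 lower in the MDA-MD-468 controls than in the MDA-MD-231 controls, where 28.8% and 25% of all genes were. Among the 17 were ZBTB7C, ZSCAN1 and ZSCAN4, which met the count rule through the MDA-MD-468 libraries. Scaling to mitochondrial mRNAs gave 9 members higher and 20 lower, where 3039 of all 18911 genes were higher and 8257 lower. The direction for the members thus depends on the scale, as it does for all genes.

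A few members stood far apart between the lines. Of these, ZBTB7C, ZSCAN1 and ZSCAN4 met the count rule through the MDA-MD-468 libraries, where they are high. Their line differences thus follow in part from the rule and are given as description only. ZBTB7C had 14.9 and 21.9 CPM in the MDA-MD-468 controls, against 0.12 and 0.656 CPM in the MDA-MD-231 controls. ZSCAN31 had 39.1 and 29.1 CPM in MDA-MD-468, against 1.68 and 1.72 CPM in MDA-MD-231. The groups do not overlap for either gene. The log2 difference was 5.55 (SE 0.48) for ZBTB7C and 4.32 (SE 0.53, edgeR adjusted p = 7.44e-06) for ZSCAN31. In the other direction, ZSCAN30 had 4.91 and 5.57 CPM in MDA-MD-468, against 25 and 25 CPM in MDA-MD-231. ZSCAN1 had a count of 0 in 11 of 11 MDA-MD-231 libraries, where 3 counts, the most that a count of 0 allows, would be 0.12 to 0.231 CPM. Its 1.19 and 1.05 CPM in the MDA-MD-468 controls were at least 8.54-fold higher than that limit in the MDA-MD-231 controls. ZSCAN4, which lengthens telomeres in mouse embryonic stem cells, had a count of 0 in 8 of 11 MDA-MD-231 libraries, at most 5 counts in the rest, and 1.29 and 1.27 CPM in the MDA-MD-468 controls.

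Most of the family fell with the combination. As the mean of 3, 6 and 12 h, 41 of 54 members (75.9%) fell and 1 rose with SY200/V50 against control, where 24.2% of all genes fell and 24% rose. Scaled to mitochondrial mRNAs, 52 members fell and 0 rose, where 15661 of all 18911 genes fell and 171 rose. On the TMM scale the median log2 fold change of the members was -1.12, and that of all genes tested was 0.09. At 3 h already 25 members fell and 0 rose, where 5.66% of all genes fell and 1.88% rose, although without either library of SY200/V50 at 3 h 3 were called. At 12 h 39 fell and 1 rose, where 23.7% of all genes fell and 25.9% rose, and 23 were called without the MDA-MD-231 library. By family, 31 of 37 ZBTB members and 10 of 17 ZSCAN members fell, and 30 of the 41 had a fold change of 0.5 or less. The lower quartile of the log2 fold change, over the mean of the 3 times, was -1.88 for members and -0.585 for all genes tested. Leaving out each of the 22 libraries in turn gave 37 to 43 called members. Summed over the 54 members, SY200/V50 gave 609.7, 566.7 and 413 CPM at 3, 6 and 12 h in MDA-MD-231, against 1202 and 1112 CPM in DMSO and Parental cells. In MDA-MD-468 the sums were 777.5, 775.7 and 850.1 CPM, against 1427 and 1381 CPM. The sum thus stood at 35.7% of the control mean at 12 h in MDA-MD-231 and at 60.5% in the other line. As a share of the raw total, without the TMM factor, these were 21.9% and 45.2%.

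**Figure D1:**
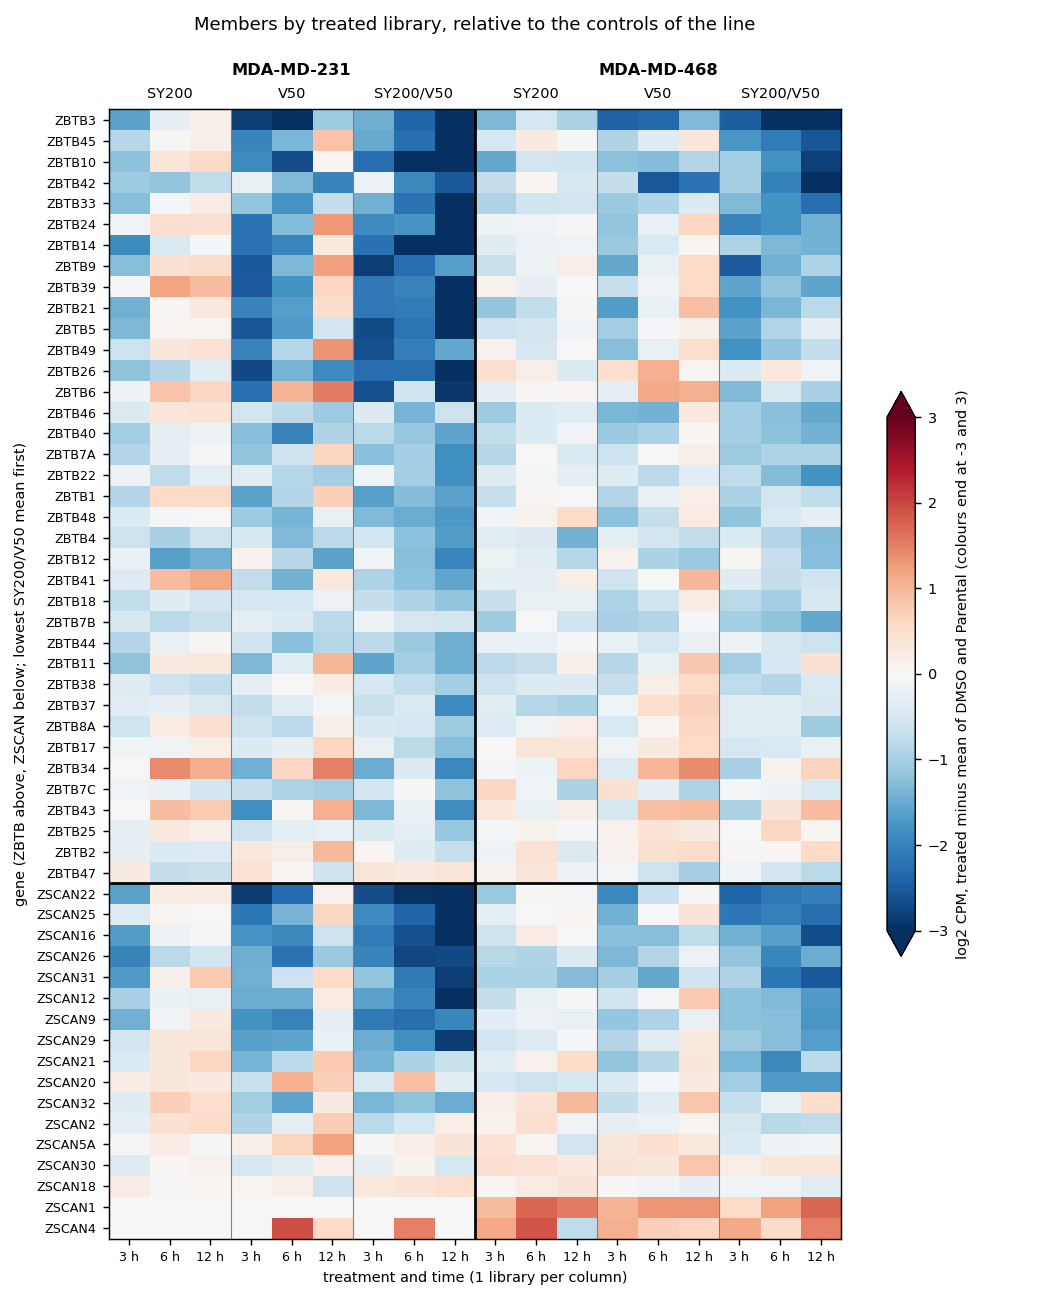
Colours show the log2 CPM of each of the 54 members (rows) in each of the 18 treated libraries (columns) minus the mean of the DMSO and Parental libraries of the same line; ZBTB genes stand above ZSCAN genes. The SY200/V50 columns are mostly blue in both lines (41 members fell), whereas the V50 columns are blue at 3 h and mixed at 12 h; ZSCAN1 has no counts in MDA-MD-231.

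The largest fall under the combination was that of ZBTB3, a little-studied ZBTB gene. ZBTB3 had 0.813, 0.377 and 0 CPM at 3, 6 and 12 h of SY200/V50 in MDA-MD-231, against 2.71 and 2.17 CPM in the controls. In MDA-MD-468 it had 1.14, 0.698 and 0.394 CPM, against 5.69 and 8.07 CPM. All 6 treated libraries were below the controls of their line, and the log2 fold change was -3.23 (SE 0.34, edgeR adjusted p = 1.96e-06). ZSCAN22 had 1.34, 1.07 and 1 CPM with SY200/V50 in MDA-MD-231, against 10.1 and 8.03 CPM, and 1.68, 2.04 and 2.16 CPM in MDA-MD-468, against 10.5 and 8.34 CPM. It was already at its low level at 3 h in both lines, and its log2 fold change was -2.61 (SE 0.27, edgeR adjusted p = 1.46e-06). The next falls were those of ZSCAN25 (-2.39), ZSCAN16 (-2.34), ZBTB45 (-2.31), ZBTB10 (-2.30) and ZBTB42 (-2.20) on the log2 scale.

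With V50 alone the fall did not last. At 3 h of V50, 16 members fell and 0 rose against control, where 3.26% of all genes fell and 0.846% rose, and the members' median log2 fold change was -1.06. At 12 h, 3 members fell and 4 rose, where 7.2% of all genes fell and 8.01% rose, and the median was 0.36. Setting 12 h of V50 against 3 h of V50, 25 members rose and 2 fell, where 7.97% of all genes rose and 4.84% fell. The median difference was 1.02 for the members and -0.09 for all genes. Scaling to mitochondrial mRNAs kept this difference at 18 members higher and 2 lower, where 968 of all 18911 genes were higher and 1051 lower. It turned the 12 h calls against control to 0 members higher and 25 lower, where 378 of all genes were higher and 11650 lower. The 3 h and 12 h calls also rest on few libraries. Without the MDA-MD-231 or the MDA-MD-468 library of V50 at 3 h, 0 and 2 members were called at 3 h, and without the MDA-MD-231 DMSO library 9 were. For 12 h against 3 h, 3, 14 and 8 members were called without the MDA-MD-231 and the MDA-MD-468 library of V50 at 3 h and without the MDA-MD-231 library at 12 h. For 12 h against control, the calls ranged from 0 without the MDA-MD-231 library of V50 at 12 h to 11 without the MDA-MD-231 library of SY200/V50 at 12 h.

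ZBTB45, known for a role in glial differentiation, shows this time course plainly. With V50 it had 3.77, 5.73 and 27.4 CPM at 3, 6 and 12 h in MDA-MD-231 and 10.9, 15.7 and 26.1 CPM in MDA-MD-468. With SY200/V50 it had 5.23, 3.08 and 1.08 CPM in MDA-MD-231 and 6.07, 4.78 and 3.41 CPM in MDA-MD-468, and the controls had 13.9 and 16.4 CPM in MDA-MD-231 and 18.5 and 23 CPM in MDA-MD-468. On the TMM scale both treatments were thus low at 3 h, and at 12 h V50 alone stood above both controls in each line while the combination stood below them. At 12 h of V50 mitochondrial mRNAs took 3.82% of counts in MDA-MD-231, against 2.51% and 2.17% in its controls. In MDA-MD-468 they took 7.42%, against 3.93% and 3.88%. Scaled to these mRNAs, 0 members were called higher than control at 12 h of V50, so levels above control depend on the scale. For ZBTB45 at 12 h the combination was lower than V50 by a log2 difference of -3.71 (SE 0.41, edgeR adjusted p = 1.73e-05). ZSCAN25 moved almost in parallel. It had 3.31, 5.67 and 23.2 CPM with V50 in MDA-MD-231, 4.01, 2.77 and 1.08 CPM with SY200/V50, and 16.5 and 13.9 CPM in the controls. In MDA-MD-468 its 12 h level was 4 CPM with SY200/V50, against 25.9 CPM with V50. ZBTB24, whose loss causes the ICF immunodeficiency syndrome in people, had 28.2 CPM at 12 h of V50 in MDA-MD-231, 0.616 CPM at 12 h of SY200/V50, and 11.9 and 11 CPM in the controls. Its last 500 bp lie under MICAL1 on the same strand in GENCODE 29, so its tags cannot be told apart from those of MICAL1 with certainty.

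Over the 22 inhibitor libraries, after the mean of each line was taken out, log2 CPM of ZBTB45 and ZSCAN25 had a Pearson correlation of 0.975, that of ZBTB24 and ZSCAN25 was 0.971 and that of ZBTB24 and ZBTB45 was 0.948. Other pairs were as close, such as ZBTB49 and ZBTB9 (0.971) and ZBTB45 and ZSCAN12 (0.964), so these 3 genes are not a group apart. These are descriptions, since the libraries share treatments, controls and scaling. Over all 1431 pairs of members the median was 0.526, and 274 pairs were above 0.8. The 250 bases before the RefSeq start of ZBTB45, ZSCAN25, ZBTB24 and of ZBTB42, a member with another time course, are shown to let their letters be compared (RefSeq on GRCh38.p14, 5' to 3' on the gene's strand). Capitals mark matches on either strand to the GC box GGGCGG, the ETS core CCGGAA and the E-box CACGTG, and matches that overlap run together in 1 stretch of capitals. By the gene positions of GENCODE 29 used elsewhere here, the windows of ZBTB45 and ZSCAN25 end just before the gene, that of ZBTB24 reaches into it, and that of ZBTB42 lies inside it, since its start there (104800596) is upstream of the RefSeq start.
ZBTB45 (chr19:58538912-58539161, minus strand): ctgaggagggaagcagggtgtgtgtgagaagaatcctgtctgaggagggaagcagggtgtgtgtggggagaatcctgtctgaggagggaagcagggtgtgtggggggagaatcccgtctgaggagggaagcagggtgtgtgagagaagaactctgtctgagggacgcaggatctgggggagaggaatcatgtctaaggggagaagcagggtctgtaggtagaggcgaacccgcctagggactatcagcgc
ZSCAN25 (chr7:99616696-99616945, plus strand): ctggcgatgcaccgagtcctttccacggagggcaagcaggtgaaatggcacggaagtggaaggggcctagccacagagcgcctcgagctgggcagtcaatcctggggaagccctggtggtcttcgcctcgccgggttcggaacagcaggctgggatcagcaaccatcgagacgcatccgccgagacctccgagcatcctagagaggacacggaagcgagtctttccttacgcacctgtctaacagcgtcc
ZBTB24 (chr6:109483220-109483469, minus strand): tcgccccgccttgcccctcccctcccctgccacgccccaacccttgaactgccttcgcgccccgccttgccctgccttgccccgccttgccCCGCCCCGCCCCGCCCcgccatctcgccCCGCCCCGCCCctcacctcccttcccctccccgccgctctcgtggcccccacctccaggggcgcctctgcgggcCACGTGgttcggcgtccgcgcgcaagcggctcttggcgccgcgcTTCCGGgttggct
ZBTB42 (chr14:104800851-104801100, plus strand): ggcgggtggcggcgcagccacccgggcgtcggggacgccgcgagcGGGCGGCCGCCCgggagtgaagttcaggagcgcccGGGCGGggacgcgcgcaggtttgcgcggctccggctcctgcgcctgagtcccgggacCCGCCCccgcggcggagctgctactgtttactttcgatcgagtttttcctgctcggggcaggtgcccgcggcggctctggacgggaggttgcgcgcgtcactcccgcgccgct
The windows of ZBTB45 and ZSCAN25 hold none of the searched motifs, that of ZBTB24 holds GC boxes, an ETS core and an E-box, and that of ZBTB42 holds GC boxes alone. Their base composition also differs, with 58.4% G and C for ZBTB45, 62.0% for ZSCAN25, 78.0% for ZBTB24 and 76.0% for ZBTB42. A missing match says only that these letters are not in this window.

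Among the 47 members with a promoter entry, 68.1% held a GC box, against 64.9% of all 12009 tested genes with an entry. The ETS core was in 36.2% of members and 23.3% of all, the CCAAT box (CCAAT) in 40.4% and 34.8%, and the E-box in 14.9% and 8.48%. A TATA box (TATAAA) was in 2.13% of members and 6.06% of all. TCCTGCNA, a sequence bound by the member ZBTB33 (Kaiso), was in 6.38% of members and 3.23% of all. Both strands were searched, and CACGTG reads the same on both.

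Other members that returned with V50 and stayed low with the combination were ZBTB9, ZBTB6, ZBTB49 and ZBTB21. ZBTB9 had 5.45, 12.2 and 74 CPM with V50 in MDA-MD-231, 4.36, 6.35 and 9.86 CPM with SY200/V50, and 35.1 and 28.2 CPM in the controls. In MDA-MD-468 it had 9.72, 24.6 and 42.8 CPM with V50, 4.99, 10.4 and 14.8 CPM with SY200/V50, and 26.6 and 30.4 CPM in the controls. From 3 to 12 h of V50 its log2 difference was 2.97 (SE 0.42, edgeR adjusted p = 0.000834), the greatest of the family. ZBTB9 was also the 1 member that rose from 3 to 12 h of the combination, by a log2 difference of 1.40, and its 12 h level remained below both controls in each line. Its counts are uncertain, since they may hold tags that are not its own. ZBTB6 had 53.8 CPM at 12 h of V50 in MDA-MD-231, against 18.7 and 18.3 CPM, and 26.6 CPM in MDA-MD-468, against 12.6 and 12.6 CPM. ZBTB49, an activator of CDKN1A, was 6.51-fold higher at 12 h than at 3 h of V50, and ZBTB21 was 5.93-fold higher.

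**Figure D2:**
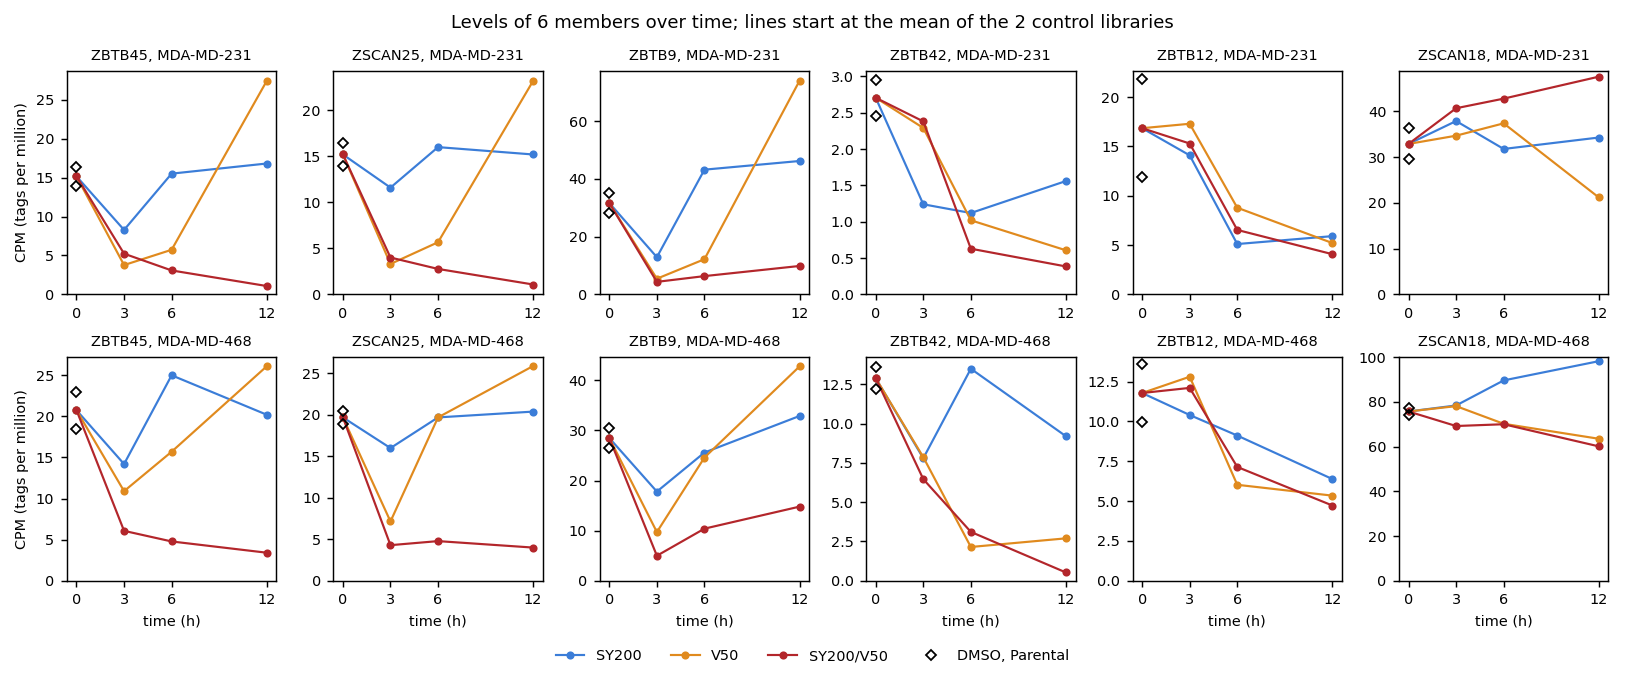
CPM of 6 members (columns of panels) against time in h, in MDA-MD-231 above and MDA-MD-468 below; each point is 1 library, diamonds at 0 h are DMSO and Parental cells, and lines start at their mean. ZBTB45, ZSCAN25 and ZBTB9 return with V50 by 12 h and stay low with SY200/V50, ZBTB42 and ZBTB12 end low with both, and ZSCAN18 stays within 60.1 to 98.2 CPM in the treated MDA-MD-468 libraries.

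A smaller set fell late and did not return. ZBTB42, a close relative of the neuronal and muscle repressor ZBTB18, had 2.29, 1.02 and 0.607 CPM at 3, 6 and 12 h of V50 in MDA-MD-231, against 2.95 and 2.46 CPM in the controls. In MDA-MD-468 it had 7.87, 2.15 and 2.7 CPM with V50 and 6.47, 3.11 and 0.525 CPM with SY200/V50, against 12.2 and 13.6 CPM. It was lower at 12 h than at 3 h with V50 (log2 difference -1.72, edgeR adjusted p = 0.0257) and with SY200/V50 (-3.33, edgeR adjusted p = 0.00147), and all 6 libraries of the combination were below the controls of their line. ZBTB12, whose gene lies in the major histocompatibility region of chromosome 6, had 17.3, 8.79 and 5.21 CPM with V50 in MDA-MD-231, against 11.9 CPM in DMSO and 21.8 CPM in Parental cells. At 3 h it lay between its controls, and at 12 h it lay below both, as in MDA-MD-468 with 5.34 CPM against 9.96 and 13.6 CPM. ZBTB42 and ZBTB12 were the 2 members that fell from 3 to 12 h of V50. With the combination, 8 members fell from 3 to 12 h and 1 rose, where 8.73% of all genes fell and 9.57% rose, and among the 8 were also ZBTB3 (-2.39), ZBTB45 (-1.43), ZBTB22 (-1.42) and ZSCAN16 (-1.32). Without the MDA-MD-231 or the MDA-MD-468 library of SY200/V50 at 3 h, 1 and 5 members were called there. Scaling to mitochondrial mRNAs gave 0 members higher and 39 lower, where 156 of all 18911 genes were higher and 10440 lower.

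The remaining 12 members did not pass the test of the combination. ZSCAN18 had 40.7, 42.8 and 47.6 CPM with SY200/V50 in MDA-MD-231, against 36.3 and 29.5 CPM, and 69.2, 70 and 60.1 CPM in MDA-MD-468, against 77.3 and 74.1 CPM. The 3 treated libraries lay above the controls in MDA-MD-231 and below them in MDA-MD-468, and the log2 fold change over both was 0.13 (SE 0.17, edgeR adjusted p = 0.557). ZSCAN30 had a log2 fold change of 0.01 (SE 0.17), ZSCAN5A of -0.01 (SE 0.20), ZBTB47 of -0.07 (SE 0.27), ZBTB2 of -0.12 (SE 0.26) and ZBTB25 of -0.20 (SE 0.22), and these 5 did not pass the test. For ZBTB2, which represses CDKN1A, the controls themselves differ, with 17.2 CPM in DMSO and 36.8 CPM in Parental cells of MDA-MD-231 and 15.9 and 33.3 CPM in MDA-MD-468. ZSCAN1, the 1 member called higher, had 1.73, 2.74 and 3.94 CPM with SY200/V50 in MDA-MD-468, against 1.19 and 1.05 CPM, with a log2 fold change of 1.22 (edgeR adjusted p = 0.0395) that comes from this line alone. Scaled to mitochondrial mRNAs its log2 fold change was -0.285 (edgeR adjusted p = 0.545), and with no filter on low counts, with DMSO alone as control or without the line as a block 0 members were called higher. ZBTB34 stood on opposite sides of its controls in the 2 lines at 12 h of SY200/V50, with 5.01 CPM in the first line, MDA-MD-231, against 21.8 and 17.5 CPM, and 28 CPM in MDA-MD-468, against 18.6 and 16.7 CPM. ZBTB43, its neighbour on chromosome 9, had 10.1 CPM in MDA-MD-231, against 43.1 and 32.1 CPM, and 37.3 CPM in MDA-MD-468, against 23.1 and 16.8 CPM.

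**Figure D3:**
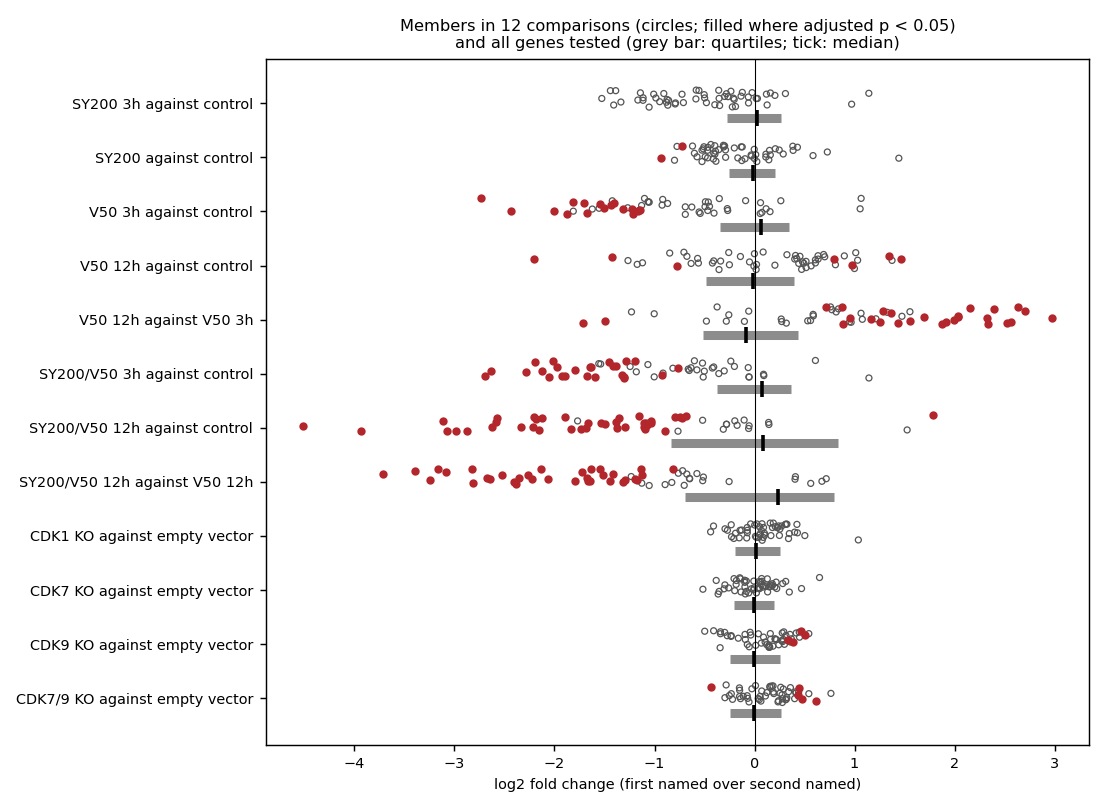
The horizontal axis is the log2 fold change of the first named over the second named condition in 12 comparisons; circles are members, filled where the adjusted p was under 0.05, and the grey bar and tick are the quartiles and median of all genes tested. The members' median lies below that of all genes with V50 at 3 h (median -1.06) and with SY200/V50 at 3 and 12 h (medians -1.12 and -1.23), above it for V50 at 12 h against 3 h (1.02), and at 0.03 to 0.18 in the knockouts.

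Set against the single agents, the combination was lower for most members. Against V50 over the 3 times, 30 members fell and 0 rose, where 12.4% of all genes fell and 7.52% rose. At 12 h alone 34 fell and 0 rose against V50 at 12 h, where 18.2% and 19.3% of all genes did, with a median of -1.36 for members and 0.24 for all genes. Against SY200, 36 fell and 0 rose, where 22.2% and 23.8% of all genes did. Against the sum of the 2 single effects, 5 members were lower and 0 higher, where 3.68% of all genes were lower and 1.36% higher. The 5 were ZBTB6 (-2.10), ZBTB24 (-1.67), ZSCAN25 (-1.67), ZBTB45 (-1.61) and ZBTB9 (-1.23), with log2 differences whose edgeR adjusted p lay between 0.0113 and 0.0453. Leaving out 1 library gave 2 to 13 members there, and with DMSO alone as control the count was 0. The count against V50 was 18, 17, 18 and 14 without the MDA-MD-231 libraries of SY200/V50 at 6 and 12 h and the MDA-MD-468 libraries of V50 at 3 and 6 h, and the 12 h count was 22 without the MDA-MD-231 library of the combination.

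SY200 alone moved few members past the threshold. Over the 3 times, 2 members fell and 0 rose, where 1.02% of all genes fell and 0.968% rose. ZSCAN26 had 3.48, 8.02 and 9.38 CPM at 3, 6 and 12 h of SY200 in MDA-MD-231, against 15.1 and 13.1 CPM, and 4.78, 4.55 and 6.52 CPM in MDA-MD-468, against 9.64 and 7.72 CPM. All 6 SY200 libraries were below the controls, with a log2 fold change of -0.94 (SE 0.23, edgeR adjusted p = 0.0445), and its 3' end overlaps the entry AL021997.3 on the same strand. ZBTB4 fell by 0.73 on the log2 scale (SE 0.18, edgeR adjusted p = 0.0403), with 61.8, 49.1 and 62 CPM against 89.6 and 104 CPM in MDA-MD-231. Leaving out 1 library gave 0 to 5 called members. The 3 h time was looked at after its values had been seen. At 3 h the summed level of the members was 743.3 CPM with SY200 in MDA-MD-231, against 1202 and 1112 CPM, and 1020 CPM in MDA-MD-468, against 1427 and 1381 CPM. At 6 h of SY200 the MDA-MD-231 sum was 1160 CPM and the MDA-MD-468 sum 1226 CPM. The median log2 fold change at 3 h was -0.49 for members and 0.03 for all genes. By edgeR 0 members were called at 3 h, where 0.264% of all genes fell and 0.159% rose. An unadjusted p under 0.05 was found for 22 members, a count not set beside that of all genes. DESeq2 called 7 members lower, where it called 265 of all 18911 genes lower and 135 higher. Among the 7 were ZSCAN22 (-1.39) and ZBTB33 (-1.10), both as DESeq2 log2 fold changes. Set directly against SY200, V50 was lower for 8 members and higher for 1, ZBTB38, where 5.1% of all genes were lower and 3.2% higher. Scaling to mitochondrial mRNAs gave 38 members lower and 0 higher, where 7432 of all 18911 genes were lower and 86 higher. Without the MDA-MD-231 libraries of SY200 at 3, 6 and 12 h, 5, 4 and 2 members were called there, and without those of V50 at 3, 6 and 12 h 3, 4 and 4. Without the MDA-MD-468 libraries of SY200 and of V50 at 3 h, 2 and 4 were called. ZBTB38 was not called without the MDA-MD-231 library of SY200 at 12 h or of V50 at 3 h, nor without the MDA-MD-468 library of SY200 at 3 h.

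The role lists are small, and their counts with the combination are read against the 75.9% of the family and the 24.2% of all genes that fell. By role, the 3 methyl-CpG binding members ZBTB33, ZBTB4 and ZBTB38 all fell with the combination. ZBTB33, or Kaiso, had 17.2, 9.88 and 5.62 CPM with SY200/V50 in MDA-MD-231, against 49.1 and 44.1 CPM, and 14.3, 10.3 and 7.41 CPM in MDA-MD-468, against 36.2 and 35.5 CPM. It was lower at each later time in both lines, with a log2 fold change of -2.01 (SE 0.20, edgeR adjusted p = 1.19e-06). ZBTB4 (-1.02) and ZBTB38 (-0.72) fell less. With V50 over all times 2 of the 3 fell, ZBTB33 (2-fold lower) and ZBTB4 (1.63-fold lower), against a background of 11.9% of all genes lower and 10.4% higher, where 18 of 54 members fell and 0 rose. The members' median in that comparison was -0.53. Without the MDA-MD-231 DMSO library 10 of them were called, and without its V50 library at 6 h 11 were.

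Of the 5 members tied to telomeres and DNA damage, 4 fell with the combination, a share near that of the family (75.9%) and above that of all genes (24.2%). ZBTB10, which binds telomere repeats and represses SP1 targets, had a log2 fold change of -2.30 and ended at 1.85 CPM in MDA-MD-231, against 19.7 and 13.6 CPM, and at 3.8 CPM in MDA-MD-468, against 27.2 and 27.3 CPM. ZBTB40 fell by 1.22, ZBTB1 by 1.11 and ZBTB48, the telomere length factor TZAP, by 1.06 on the log2 scale. ZSCAN4, the last of the list, had a log2 fold change of 1.25 (edgeR adjusted p = 0.09) at 1.93 to 3.8 CPM in the MDA-MD-468 libraries of the combination.

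The list for blood and immune lineages had 8 tested genes, of which 6 fell with the combination, where 75.9% of the family and 24.2% of all genes fell. They were ZBTB7A (LRF, a repressor of fetal globin genes, -1.18), ZBTB7B (-0.82), ZBTB46 (a marker of classical dendritic cells, -1.24), ZBTB1, ZBTB17 (MIZ1, a partner of MYC, -0.56) and ZBTB24 (-1.98). ZBTB25 (-0.20) and the non-member ZBTB20 did not pass. ZBTB7A had 10.5 CPM at 12 h of SY200/V50 in MDA-MD-231, against 32.8 and 44.4 CPM, and 21.1 CPM in MDA-MD-468, against 36.5 and 44.8 CPM. With V50 at 12 h it had 60.5 and 45.8 CPM in the same lines, above both controls of each line, though barely in MDA-MD-468. This holds on the TMM scale, since scaling to mitochondrial mRNAs left 0 members called higher at 12 h of V50.

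Among the 6 genes that act on MYC, p53 or CDKN1A, the 5 that fell with the combination were ZBTB17, ZBTB5 (-1.71), ZBTB7A, ZBTB49 (-1.67) and ZBTB4, where 75.9% of the family and 24.2% of all genes fell, and ZBTB2 did not pass. For ZBTB5 the SY200/V50 effect in MDA-MD-468 minus that in MDA-MD-231 was 1.84 on the log2 scale (SE 0.53) and did not pass edgeR's test (adjusted p = 0.147), while DESeq2 called it (adjusted p = 0.0342). It had 4.3, 6.04 and 2.46 CPM with SY200/V50 in MDA-MD-231, against 32.5 and 24.4 CPM, and 30.1, 49.9 and 77.3 CPM in MDA-MD-468, against 100 and 83.8 CPM. In MDA-MD-231 the level stayed low, whereas in MDA-MD-468 the later libraries lay closer to the controls. The 4 members of the neural and developmental list, ZBTB18 (-0.84), ZBTB45, ZBTB14 (-1.96) and ZBTB12 (-0.93), all fell, and so did ZBTB11 (-0.79), which is needed for mitochondrial function, although at 12 h in MDA-MD-468 ZBTB11 had 67 CPM, against 53.1 and 44.9 CPM.

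The SCAN cluster of chromosome 6p22 holds 5 members within 1 Mb of each other, ZSCAN16, ZSCAN9, ZSCAN26, ZSCAN31 and ZSCAN12, at chr6:28124560-28399734 (GRCh38, GENCODE 29). All 5 fell with the combination, with log2 fold changes of -2.34 for ZSCAN16, -2.06 for ZSCAN26, -1.92 for ZSCAN31, -1.83 for ZSCAN12 and -1.79 for ZSCAN9, where 75.9% of the family and 24.2% of all genes fell. A second group, ZSCAN4, ZSCAN1, ZSCAN18, ZSCAN22 and ZBTB45, lies at chr19:57668935-58538911. Its members moved unlike each other, with ZSCAN22 (-2.61) and ZBTB45 (-2.31) among the largest falls, ZSCAN18 (0.13) not passing the test and ZSCAN1 (1.22) called higher, though not when scaled to mitochondrial mRNAs. In all, 22 members have another member within 1 Mb, and chromosomes 6, 1 and 19 carry 10, 9 and 7 of the 54.

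Relatives outside the name rule give a comparison. Of 471 ZNF genes chosen by the same rule on counts, 345 fell and 8 rose with the combination, with a median of -1.11 beside the members' -1.12, so ZNF genes stood at the same median as the members. With V50 at 12 h against 3 h, 255 ZNF genes rose and 5 fell, with a median of 1.33. Of 29 SCAN zinc finger genes with other names, 24 fell and 0 rose (median -1.41), among them ZNF232 (-1.68), ZNF165 (-2.26) and ZNF174 (-2.10). Of 7 tested BTB zinc finger genes with other names, 6 fell and 0 rose, among them HIC2 (-1.91), MYNN (-1.24) and ZNF131 (-1.15). The BTB-Kelch genes, which share the BTB domain but have no zinc fingers, had 15 of 28 lower and 2 higher (median -0.80). Of 10 co-repressors and partners of BTB proteins, 4 fell, BCORL1 (-2.69), BCOR (-2.36), SIN3A (-1.94) and CUL3 (-0.38), and 3 rose, HDAC1 (0.84), HDAC3 (0.62) and HDAC2 (0.41), relative to the background of 24.2% lower and 24% higher. Those other than BCORL1, HDAC1 and SIN3A were chosen for naming after their values were seen. Scaled to mitochondrial mRNAs the 3 rises turned to falls, at -0.592 for HDAC1, -0.804 for HDAC3 and -1.031 for HDAC2. Of 5 tested genes reported as targets of members, CDKN1A (-1.70), MCM10 (-0.82) and CDCA7 (-0.79) were lower.

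The effect of each treatment was compared between the lines by an interaction term. At 12 h of SY200/V50, 41 of 54 members were below control in both lines and 0 were above it in both, with medians of -0.88 in MDA-MD-468 and -1.70 in MDA-MD-231. Agreement of sign between the lines was counted for members only. The median log2 fold change of all genes tested, over both lines, was 0.09 at that time. The median difference of the members' effect in MDA-MD-468 minus that in MDA-MD-231 was 0.43 with V50 and 0.64 with SY200/V50. By edgeR 0 members passed for any of the 3 treatments, as did 0% of all genes. An unadjusted p under 0.05 was found for 0 members with SY200, 6 with V50 and 12 with SY200/V50. These counts were not set beside those of all genes. DESeq2 called ZBTB26 with V50, where 42 of all 18911 genes were higher and 78 lower. It called ZBTB26 and ZBTB5 with SY200/V50, where 171 of all genes were higher and 250 lower. ZBTB26 had 1.28, 1.26 and 0.308 CPM with SY200/V50 in MDA-MD-231, against 6.67 and 6.48 CPM, and 3.21, 5.37 and 3.94 CPM in MDA-MD-468, against 3.95 and 4.61 CPM. The treated libraries were all below the controls in MDA-MD-231 and on both sides of them in MDA-MD-468, and the difference between the lines was 2.76 on the log2 scale (SE 0.61, edgeR adjusted p = 0.09, DESeq2 adjusted p = 0.00505).

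In the knockouts the targeted genes were checked first. CDK7 had 15.3 and 13.7 CPM at 72 and 96 h in CDK7 KO cells and 15.6 and 17.1 CPM in CDK7/9 KO cells, against 49 and 66.5 CPM in empty vector cells. CDK9 had 33.2 and 36.4 CPM in CDK9 KO cells and 34.3 and 36.6 CPM in CDK7/9 KO cells, against 70.4 and 62.1 CPM. CDK1 had 81.7 and 84.3 CPM in CDK1 KO cells, against 178 and 283 CPM in empty vector cells, but the Parental library of that part had 84.4 CPM. Where a deletion lies relative to the tagged 3' end is not given in the labels, so a remaining count does not measure protein.

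Single knockouts of CDK1 and CDK7 moved 0 of 52 tested members past the threshold by edgeR. In CDK1 KO cells 0.292% of all genes were higher and 0.0298% lower, and in CDK7 KO cells 0.0179% and 0.00596%. An unadjusted p under 0.05 was found for 12 and 6 members, counts not set beside those of all genes. DESeq2 called 0 members in both. In CDK9 KO cells 4 members rose and 0 fell, where 4.36% of all genes rose and 3.85% fell. They were ZBTB21 (log2 fold change 0.50), ZBTB4 (0.46), ZSCAN18 (0.39) and ZBTB7A (0.34), with edgeR adjusted p between 0.0214 and 0.0498. In CDK7/9 KO cells 4 rose and 1 fell, where 5.62% of all genes rose and 5.68% fell. The 4 were ZBTB34 (0.61), ZBTB47 (0.48), ZBTB4 (0.44) and ZBTB7A (0.43), and the 1 that fell was ZBTB44 (-0.43). These shares of 52 members lie near the background. ZBTB4 had 198 and 215 CPM in CDK9 KO cells and 203 and 204 CPM in CDK7/9 KO cells, against 159 and 141 CPM in empty vector cells. The knockout groups lie above empty vector without overlap for ZBTB4, and ZBTB44 lies below it with 52.5 and 50.7 CPM in CDK7/9 KO cells, against 62.1 and 77.6 CPM.

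The knockout calls hang on the scale and on which libraries are kept. Scaled to mitochondrial mRNAs, 0 members were higher and 34 lower in CDK9 KO cells. Of all 16783 genes, 67 were higher and 11344 lower there. In CDK7/9 KO cells 0 members were higher and 31 lower, where 78 of all genes were higher and 11060 lower. In neither was the share of members called lower above that of all genes. That scaling turned the sign of all 8 rises. Mitochondrial mRNAs took 5.04% and 5.98% of counts in CDK9 KO cells and 5.38% and 5.41% in CDK7/9 KO cells, against 3.77% and 2.6% in empty vector cells. Without the empty vector library of 72 h, 21 members were called in CDK1 KO, 18 in CDK7 KO, 25 in CDK9 KO and 22 in CDK7/9 KO cells. Leaving out 1 library gave as few as 0 in each genotype, and moved the count by more than 1.5 times for 10 of 10 libraries in CDK9 KO and 8 of 10 in CDK7/9 KO cells. The summed level of the 52 members was 1364 to 1616 CPM in the 8 knockout libraries, against 1427 and 1426 CPM in empty vector cells.

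**Figure D4:**
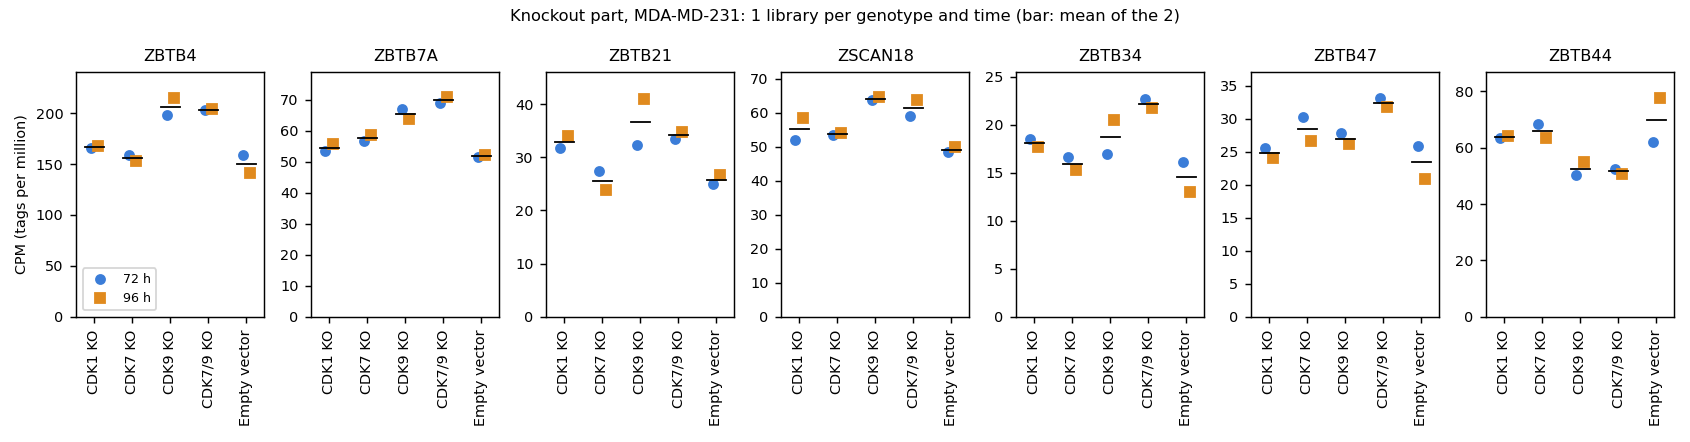
CPM of the 7 members called in CDK9 KO or CDK7/9 KO cells, in each knockout genotype and, rightmost, in empty vector cells of MDA-MD-231; each point is 1 library at 72 or 96 h and the bar is the mean of the 2. ZBTB4 reaches 198 to 215 CPM in CDK9 KO and CDK7/9 KO cells, against 141 and 159 CPM in empty vector cells.

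The members share some gene features that the name rule did not use. Their median gene length was 23069.5 bp, against 33183 bp over 13700 tested protein-coding genes, and 25.9% had a single coding exon, against 6.01%. Members that fell with the combination had a median length of 18985 bp and the other 13 one of 27432 bp. Across the 54 members, gene length and the log2 fold change of the combination had a Spearman correlation of 0.45, and across all protein-coding genes it was -0.06. Genes are not independent replicates and share libraries, so these are descriptions. For the length of the 3' UTR the values were -0.11 and -0.25, and for the number of ATTTA motifs in it -0.04 and -0.23. The shortest members, ZBTB12 (2386 bp), ZBTB22 (3537 bp), ZBTB9 (3579 bp) and ZBTB42 (4117 bp), each have 1 coding exon. ZBTB12, ZBTB22 and ZBTB42 are members that fell from 3 to 12 h of the combination, and ZBTB9 is the 1 that rose. In 14 members another gene covers part of the last 500 bp, 3 of them on the same strand, and the strand setting of the counting is not given in the sources used here.

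**Figure D5:**
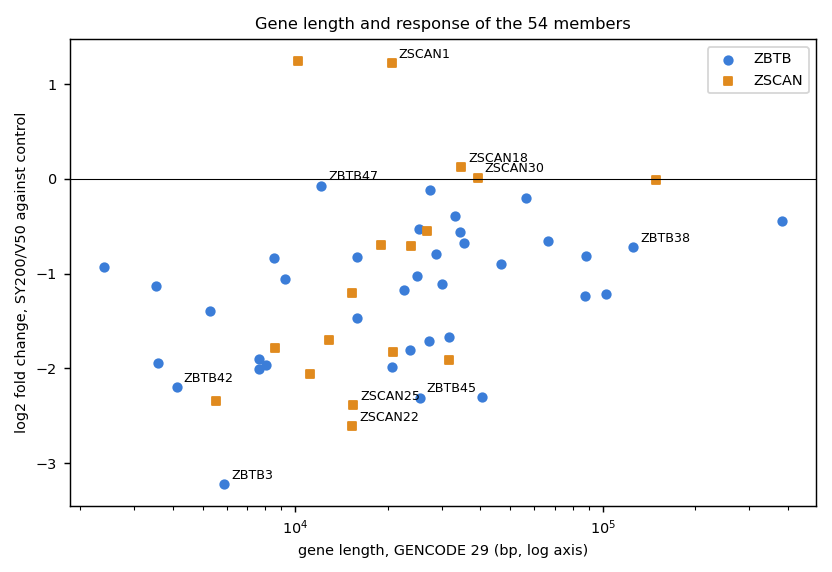
Gene length in bp on a log axis against the log2 fold change of SY200/V50 against control, 1 point for each of the 54 members, circles for ZBTB and squares for ZSCAN. The Spearman correlation was 0.45 with a wide scatter: the short genes ZBTB3 (-3.23) and ZBTB42 (-2.20) lie low, while the shortest, ZBTB12, lies at -0.93, and the longer ZBTB10 (40647 bp) lies at -2.30.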

How the data were processed

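The members, gene lists and tests were chosen with earlier results of these data known. Whole-number counts per gene, not normalized, were deposited by the authors for 33 libraries made with a 3' tag kit (QuantSeq 3' FWD), per the labels' protocols. STAR 2.7.10a, FastQC and GRCh38 are named in the submitters' processing notes. How reads were counted (tool, annotation, strand, molecular identifiers) is not given in the sources used here. Levels are CPM on the TMM-scaled library. Genes passing filterByExpr (minimum count 10, minimum total 15) were tested with the quasi-likelihood F test of edgeR 4.0.16 in R 4.3.3, with Benjamini-Hochberg adjustment over all genes tested and a threshold of 0.05. The inhibitor fit had 10 conditions and the line as a block (11 residual degrees of freedom), the fit of differences between lines had 8, and the knockout fit had genotype and time over 10 libraries (4 residual degrees of freedom), without its Parental library. The block is the line in the inhibitor part and the time in the knockouts, both from the labels. In each comparison at most 6 called members per direction, those that changed most and agreed in sign between the lines (knockouts: between times), are named, as is every member of a role list. Up to 3 non-members per list, those with the smallest adjusted p, are named. Further members are named with their values, some of them chosen after these were seen. The contrast of SY200 at 3 h was added after the values were seen. DESeq2 1.42.0, DESeq2 size factors, no filter, scaling to 13 mitochondrial mRNAs, DMSO alone as control, no block, a stricter count rule and leaving out each library were tried. Simulated counts were used to test the scripts. Intervals and limits cover counting error only. Gene positions are from GENCODE 29 and promoters from RefSeq on GRCh38.p14.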

Additional observations from a re-analysis of the deposited data

Results flagged for a closer look

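For the members named here, the effect at 12 h of V50 or of SY200/V50 differed from that at 3 h of the same treatment, by the test of 12 h against 3 h. Whether these changes differ between members or between the treatments was not tested. With V50 the log2 differences of 12 h against 3 h were 2.974 for ZBTB9, 2.702 for ZBTB49, 2.634 for ZBTB24, 2.567 for ZBTB21, 2.521 for ZSCAN22 and 2.399 for ZBTB6. They were -1.717 for ZBTB42 and -1.499 for ZBTB12. With SY200/V50 they were -3.334 for ZBTB42, -2.39 for ZBTB3, -1.626 for ZBTB12, -1.429 for ZBTB45, -1.424 for ZBTB22 and -1.321 for ZSCAN16, and 1.395 for ZBTB9. Each time has 1 library in each line.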

How the results depend on the processing

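The values here are numbers of members called, and the cause of a change was not tested. With DESeq2 size factors SY200 had 1. With no filter on low counts SY200 had 0, V50 at 12 h 2, the comparison with the sum of the single effects 3, V50 against SY200 4, CDK1 KO 2 and CDK7/9 KO 8. Scaled to mitochondrial mRNAs, SY200 had 24, SY200 at 3 h 25, V50 48, V50 at 3 h 47, V50 at 12 h 25, SY200/V50 at 3 h 50, its 12 h against 3 h 39, SY200/V50 against V50 48, the sum 10, V50 against SY200 38, CDK9 KO 34 and CDK7/9 KO 31. With that scaling 5097 of all 18911 genes were lower and 202 higher with SY200. With V50 13964 were lower and 309 higher, and with SY200/V50 15661 and 171. In CDK9 KO 11344 of 16783 were lower and 67 higher, and in CDK7/9 KO 11060 and 78. That scaling turned the sign of ZSCAN1 (-0.285) with SY200/V50, of ZBTB9 (-0.008) and ZSCAN5A (-0.199) with V50 at 12 h, of ZBTB21 (-0.333), ZBTB4 (-0.351), ZSCAN18 (-0.43) and ZBTB7A (-0.477) in CDK9 KO, and of ZBTB34 (-0.172), ZBTB47 (-0.316), ZBTB4 (-0.35) and ZBTB7A (-0.372) in CDK7/9 KO. With no replicate block for the line, SY200, V50, V50 at 3 h, V50 at 12 h, both 12 h against 3 h comparisons, the sum and V50 against SY200 had 0, and SY200/V50 had 23, at 3 h 1, at 12 h 16, against V50 7, against SY200 20 and at 12 h against V50 at 12 h 11. With DMSO alone as control SY200 and the sum had 0, V50 at 12 h 4 and the lines 13. DESeq2 gave 5 for SY200, 7 for SY200 at 3 h, 11 for the sum, and 1 and 2 for the line differences of V50 and SY200/V50.

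Leaving out each library in turn gave 0 to 5 for SY200, 0 to 1 for SY200 at 3 h, 10 to 23 for V50, 0 to 20 for V50 at 3 h, 0 to 11 at 12 h and 3 to 28 for 12 h against 3 h. For SY200/V50 it gave 37 to 43, at 3 h 3 to 26, at 12 h 23 to 41, for 12 h against 3 h 1 to 11, against V50 14 to 33, against SY200 32 to 39, at 12 h against V50 22 to 39 and against the sum 2 to 13. It gave 2 to 12 for V50 against SY200, 0 to 1 for the line difference of SY200/V50, 14 to 23 for the lines, 0 to 21 for CDK1 KO, 0 to 18 for CDK7 KO, 0 to 25 for CDK9 KO and 0 to 22 for CDK7/9 KO. Members under 1 CPM are limited by depth.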
